A study of Mus musculus with 9 samples.

Results

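Expression of 10 genes of the AP-1 transcription factor family and of the immediate early response was examined in sorted hematopoietic stem cells (HSCs) in which 1 or both copies of Bcl11a had been deleted. The genes were taken from a list of symbols with no threshold on a measured value, but the list was drawn up with earlier results of these data known, so the counts below describe these genes and are no independent support. They were the Fos family members Fos, Fosb and Fosl2, the Jun family members Jun, Junb and Jund, and the further immediate early genes Atf3, Egr1, Ier2 and Zfp36. All 10 had a probe set assigned to a single symbol, out of 22180 such genes on the array, and all 10 passed the filter on dim genes, which 16636 genes passed. Only Jund had 2 probe sets, and the brighter was used.

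The mice carried floxed Bcl11a and were crossed to Mx1-Cre, a transgene that interferon switches on in blood cells and in other interferon-responsive tissues. Knockout (KO) mice had 2 floxed alleles with Cre, heterozygous (Het) mice had 1 floxed and 1 wild-type allele with Cre, and wild-type (WT) mice had 2 floxed alleles without Cre. Mice of all 3 groups, 6 to 8 months of age, were given the interferon inducer poly(I:C) in 5 doses, so the WT cells had met the inducer too but not the recombinase. Lineage-negative, Sca-1-positive, Kit-positive, CD48-negative, Flt3-negative and CD150-positive marrow cells were sorted after staining and magnetic enrichment, and each group was measured on 3 arrays, 1 per biological replicate. The labels do not say which arrays held YFP-positive and which YFP-negative cells. Values are log2 expression, and replicates are given in the order 1, 2, 3.

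AP-1 is a dimer of a Jun protein with a Fos, Jun or ATF protein that binds DNA through a basic leucine zipper. Many of its genes, though not all, belong to the immediate early class. Transcription of that class starts within minutes of a signal, needs no new protein, and ends quickly because the messages are unstable. In blood stem and progenitor cells these genes respond to cytokines and stress and are also well known to be induced by tissue dissociation and sorting.

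The 9 arrays had medians of 3.95 to 4.15 and interquartile ranges of 2.22 to 2.83. WT replicate 1 had the narrowest range (2.22) and the highest median. The range was 2.80 on KO replicate 2, 2.53 on Het replicate 1 and 2.39 on Het replicate 2. Bcl11a itself read 7.82, 7.90 and 8.66 in KO, 8.34, 8.37 and 8.89 in Het and 8.73, 8.81 and 8.38 in WT cells, so the array labelled KO replicate 3 lay inside the WT range. Whether its probes lie in the deleted stretch is not known here, so this reading does not check the labels. Some of the KO results, not all, are also given without that array. Of the 12 HSC markers with a probe set, 12 in KO, 12 in Het and 11 in WT cells read above the range of absent transcripts on every array. The absent range came from sex-linked genes, which read up to 3.32 for Y-linked genes on 4 female arrays and up to 4.22 for Xist on 5 male arrays. By Xist, 1 KO, 1 Het and 2 WT arrays came from females, and 2 KO, 2 Het and 1 WT array from males.

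Promoters of 8 of the 10 genes were found in RefSeq (GRCm38.p6), and Egr1 and Ier2 were not among them. Those of Fosb, Jund, Jun and Zfp36 are shown because the gene pairs called by Pearson's r over the arrays lay among them, except Junb with Ier2. Jund entered by its brighter probe set. The promoter of Junb was found but is not shown. That of Atf3 is shown because its r with each of Fosb, Jund, Jun and Zfp36 over all arrays was negative, although no such r was called. Each runs from 250 bases before to 50 bases after the annotated start, 5′ to 3′ on the gene's strand, with motif matches in capitals. The starts are RefSeq's and were not measured here. They lie at chr7:19309996-19310295 (minus strand) for Fosb, chr8:70697489-70697788 (plus) for Jund, chr4:95052173-95052472 (minus) for Jun, chr7:28379179-28379478 (minus) for Zfp36 and chr1:191183284-191183583 (minus) for Atf3.
Fosb: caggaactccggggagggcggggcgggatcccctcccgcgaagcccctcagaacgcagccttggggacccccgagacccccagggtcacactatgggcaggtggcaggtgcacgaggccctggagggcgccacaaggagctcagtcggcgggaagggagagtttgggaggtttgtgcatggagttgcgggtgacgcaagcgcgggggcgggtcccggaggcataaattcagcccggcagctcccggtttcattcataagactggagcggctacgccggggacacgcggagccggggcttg
Jund: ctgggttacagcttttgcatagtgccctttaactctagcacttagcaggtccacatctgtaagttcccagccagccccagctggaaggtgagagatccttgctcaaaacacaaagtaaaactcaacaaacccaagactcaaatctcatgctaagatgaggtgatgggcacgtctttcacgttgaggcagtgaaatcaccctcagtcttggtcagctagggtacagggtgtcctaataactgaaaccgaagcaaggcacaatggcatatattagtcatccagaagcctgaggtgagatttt
Jun: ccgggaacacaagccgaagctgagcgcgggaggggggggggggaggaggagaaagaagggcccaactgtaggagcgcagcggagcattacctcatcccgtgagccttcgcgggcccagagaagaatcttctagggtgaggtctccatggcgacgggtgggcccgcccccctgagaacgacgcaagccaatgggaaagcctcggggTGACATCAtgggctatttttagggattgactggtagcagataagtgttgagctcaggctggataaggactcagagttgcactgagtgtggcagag
Zfp36: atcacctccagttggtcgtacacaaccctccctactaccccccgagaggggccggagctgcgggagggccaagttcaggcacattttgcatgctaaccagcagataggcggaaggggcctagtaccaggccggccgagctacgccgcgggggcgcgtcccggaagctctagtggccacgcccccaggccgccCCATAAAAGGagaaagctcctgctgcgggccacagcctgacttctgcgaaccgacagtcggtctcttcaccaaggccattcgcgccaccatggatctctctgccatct
Atf3: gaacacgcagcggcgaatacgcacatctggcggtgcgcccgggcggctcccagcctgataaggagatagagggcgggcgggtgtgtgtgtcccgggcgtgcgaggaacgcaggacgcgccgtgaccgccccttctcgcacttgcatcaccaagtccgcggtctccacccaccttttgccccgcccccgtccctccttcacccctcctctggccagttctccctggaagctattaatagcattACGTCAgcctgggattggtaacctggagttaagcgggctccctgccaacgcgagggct

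Searched on both strands were TGANTCA, the AP-1 site, TGACNTCA, the form bound by Jun and ATF dimers, TGACGT, the core of the cyclic AMP response element, which overlaps TGACNTCA where N is G, and the CArG box bound by serum response factor. The motifs were chosen with the promoters in view. Jun held TGACNTCA starting at base -45 from the start site, as 8.83% of all 32851 promoters did. Zfp36 held a CArG box at -58, found in 1.63% of promoters, and Atf3 held TGACGT at -8, printed as its reverse complement, as did Fos at -66, a motif of 7.51% of promoters. TGANTCA was in none of the 8 promoters and in 7.81% of all. Fosb and Jund held none of the 4 motifs in these windows.

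The Fos family supplies the AP-1 partners that cannot pair with themselves. Fosb, whose product is among the longer-lived Fos proteins in its short form, read 5.15, 7.89 and 5.65 in KO and 6.68, 6.56 and 5.27 in Het cells, against 3.96, 4.74 and 4.46 in WT cells. Every KO and every Het array was above every WT array. The lowest WT reading lay within the range of absent transcripts. KO minus WT was 1.84 (SE 0.642, adjusted p = 0.540 with limma) and Het minus WT 1.78 (adjusted p = 0.946 with limma), neither past the threshold. Without KO replicate 2, the highest array, KO minus WT was 1.01.

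Fos, the founding member, read 5.10, 7.16 and 5.56 in KO and 4.94, 6.85 and 4.63 in Het cells, against 5.13, 4.96 and 4.44 in WT cells. The high readings were 1 KO and 1 Het array, and the other arrays of all 3 genotypes overlapped. Fosl2, which encodes the Fos-related antigen FRA2, read 6.15, 5.87 and 5.31 in KO, 5.72, 4.91 and 5.83 in Het and 4.84, 5.41 and 4.81 in WT cells. KO minus WT was 1.10 for Fos (adjusted p = 0.660 with limma) and 0.76 for Fosl2 (adjusted p = 0.592 with limma). Without KO replicate 2 the difference of Fos was 0.49. Het minus WT for Fos was 0.63, and -0.058 without Het replicate 2. For Fosl2, WT replicate 2 read above the lowest KO array.

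Among the Jun family, Jund differed most between KO and WT cells by its brighter probe set, and Jun between Het and WT cells. Jund encodes the Jun protein that is broadly present in resting cells, and the brighter set read 7.95, 9.40 and 8.28 in KO and 8.58, 8.17 and 7.17 in Het cells, against 6.65, 6.68 and 6.70 in WT cells. The groups did not overlap in either comparison, and the WT arrays were nearly equal (SD 0.0252, against 0.760 in KO and 0.725 in Het cells, n = 3 each). KO minus WT was 1.87, a 3.65-fold difference (SE 0.424, adjusted p = 0.259 with limma), and Het minus WT was 1.30 (adjusted p = 0.889 with limma). A second, dimmer Jund probe set did not show it: it read 5.74, 6.89 and 5.86 in KO, 6.57, 6.46 and 6.01 in Het and 6.25, 6.22 and 6.35 in WT cells, with a KO minus WT difference of -0.11. The 2 probe sets had an r of 0.414 over the arrays.

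Jun, the main transactivating partner of AP-1, read 7.59, 8.88 and 6.91 in KO and 8.72, 8.34 and 7.92 in Het cells, against 5.31, 6.76 and 7.49 in WT cells. All Het arrays were above all WT arrays, while KO and WT overlapped. Het minus WT was 1.81 (SE 0.589, adjusted p = 0.889 with limma) and KO minus WT 1.27 (adjusted p = 0.614 with limma). Without WT replicate 1, the lowest of the 9 arrays, the differences were 1.20 for Het and 0.67 for KO, and without KO replicate 2 the KO difference was 0.73.

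Junb, known as a brake on proliferation of HSCs in mice, read 6.53, 6.75 and 6.06 in KO, 7.06, 7.04 and 6.78 in Het and 5.84, 7.25 and 6.01 in WT cells. The highest array was WT replicate 2 and the lowest WT replicate 1, so WT cells spanned the other groups. KO cells lay below Het cells without overlap, by -0.51 (adjusted p = 0.998 with limma).

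Atf3, a stress-induced factor of the ATF family that can repress its targets, was the gene with the opposite sign. It read 4.01, 3.95 and 4.25 in KO and 4.75, 4.16 and 4.15 in Het cells, against 4.90, 4.34 and 4.40 in WT cells. All KO arrays were below all WT arrays, by -0.48 (SE 0.258, adjusted p = 0.650 with limma). Of its 9 readings, 4 lay in the range of absent transcripts.

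Zfp36 encodes tristetraprolin, which binds AU-rich elements and speeds the decay of short-lived messages, those of immediate early genes among them. It read 9.38, 10.02 and 8.59 in KO and 9.43, 9.93 and 8.80 in Het cells, against 7.29, 9.04 and 8.22 in WT cells. The highest WT array lay inside the range of both other groups. KO minus WT was 1.15 (SE 0.494, adjusted p = 0.592 with limma) and Het minus WT 1.20 (adjusted p = 0.972 with limma). Without WT replicate 1, the lowest array, they were 0.70 in KO and 0.76 in Het cells.

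The zinc finger factor Egr1, which in mice restrains the cycling and egress of HSCs, read 6.50, 6.79 and 4.96 in KO, 6.69, 5.95 and 5.88 in Het and 5.60, 6.61 and 5.65 in WT cells. Ier2, a nuclear protein of the immediate early class, read 6.02, 7.06 and 4.76 in KO, 6.76, 7.43 and 5.72 in Het and 5.22, 7.11 and 5.48 in WT cells. The 3 genotypes overlapped throughout for both genes. KO minus WT was 0.13 for Egr1 (95% interval -0.93 to 1.19) and 0.01 for Ier2 (-1.46 to 1.48), so at this spread differences of about 1 in either direction were not detectable. These differences were 0.69 and 0.60 without the array labelled KO replicate 3, and -0.22 and -0.55 without KO replicate 2.

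**Figure D1:**
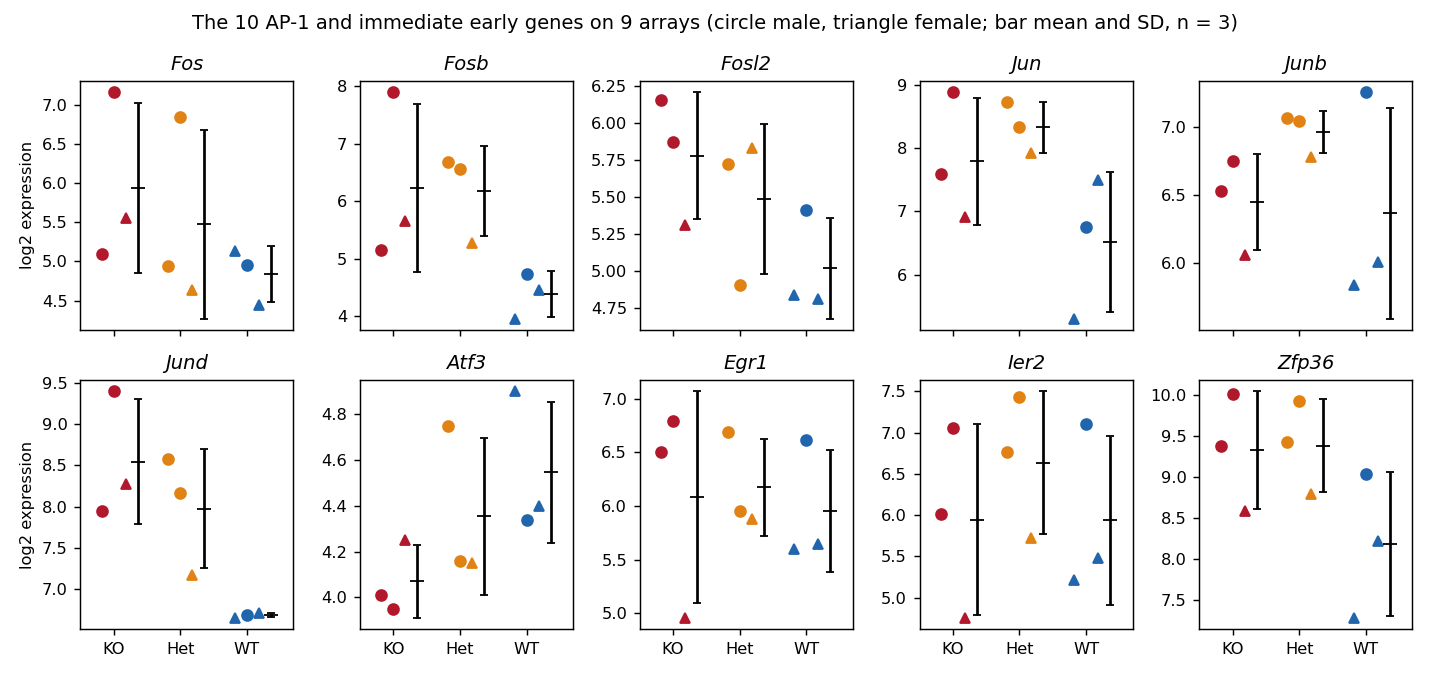
Log2 expression (vertical axes, 1 scale per gene) of the 10 genes on each array, grouped as KO, Het and WT from left to right. Circles are arrays of male mice, triangles those of female mice, and the bar gives the mean and SD of 3 arrays. The WT arrays of Fosb and Jund lie below all others, and those of Junb, Egr1 and Ier2 overlap the other groups.

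The comparison of KO with WT cells asks what loss of both copies does. Of the 10 genes, 9 had a positive difference and 1 a negative one, with a median of 0.93 where the median over all genes tested was -0.04 and 45.4% of genes were positive. None of the 10 was called at an adjusted p under 0.05 (limma, Benjamini-Hochberg over 16636 genes), where 0.0421% of all genes were, 0.0361% as higher. At an unadjusted p under 0.05, 4 of 10 were higher in KO cells (Fosb, Fosl2, Jund and Zfp36) and 0 lower, against 5.4% of all genes as higher, 2.81% as lower and 8.21% in all. The groups did not overlap for 2 genes that were higher, Fosb and Jund, against 6.51% of all genes, and for 1 that was lower, Atf3, against 7.32%. The count of 4 was 1 without WT replicate 1, 2 without KO replicate 2, 2 without Het replicate 1 and 5 without the array labelled KO replicate 3. Without the array labelled KO replicate 3, Jund differed by 2.00 and Fosb by 2.13, and the median was 1.14. Without KO replicate 2, which had the highest value of 6 of the 10 genes, Jund differed by 1.44 and Fosb by 1.01, and the median was 0.60.

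The comparison of Het with WT cells asks what loss of 1 copy does, and it shares its WT arrays with the comparison above. Again 9 differences were positive and Atf3 was negative, with a median of 0.67 where all genes had a median of -0.01 and 48.3% were positive. None of the 10, and 0% of all genes, was called with limma. At an unadjusted p under 0.05, 4 of 10 were higher (Fosb, Jun, Jund and Zfp36) and 0 lower, against 3.12% of all genes as higher, 1.77% as lower and 4.89% in all. For 3 of them (Fosb, Jun and Jund) the groups did not overlap, against 4.51% of all genes as higher, and for 0 as lower, against 3.9%. That count of 4 was 1 without Het replicate 1 and 2 without WT replicate 1. The median was 1.16 without WT replicate 2, 1.10 without Het replicate 3 and 0.39 with sex as a term.

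Between KO and Het cells the signs were mixed. In that comparison 4 of 10 differences were positive, against 47% of all genes, with a median of -0.07 against -0.02 over all genes, and the median took the other sign without Het replicate 1 (0.07), without the array labelled KO replicate 3 (0.33) and with array weights (0.16). None was called with limma, where 0% of all genes were, and 0 of 10 had an unadjusted p under 0.05, against 2.61% of genes as higher, 1.95% as lower and 4.56% in all. The groups did not overlap for 1 gene that was lower, Junb, against 5.4% of all genes, and for 0 that were higher, against 4.42%. The widest differences were -0.69 for Ier2 (95% interval -2.17 to 0.79) and 0.57 for Jund (-0.37 to 1.51), both intervals reaching past 1 in size. Averaged over KO and Het, the Cre-carrying cells differed from WT cells by 1.81 for Fosb (adjusted p = 0.521 with limma), 1.58 for Jund (adjusted p = 0.326 with limma), 1.54 for Jun and 1.18 for Zfp36. Those were the 4 genes with an unadjusted p under 0.05, against 4.69% of all genes as higher, 2.52% as lower and 7.21% in all, and none was called, as 0% of all genes were. In all 9 genes had a positive difference, against 46.5% of genes, and for 2, Fosb and Jund, every KO and Het array was above every WT array, against 1.7% of all genes as higher and 1.36% as lower. Without WT replicate 1 the count was 2. WT mice lacked Cre as well as the deletion, so Cre and the deletion cannot be told apart here.

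**Figure D2:**
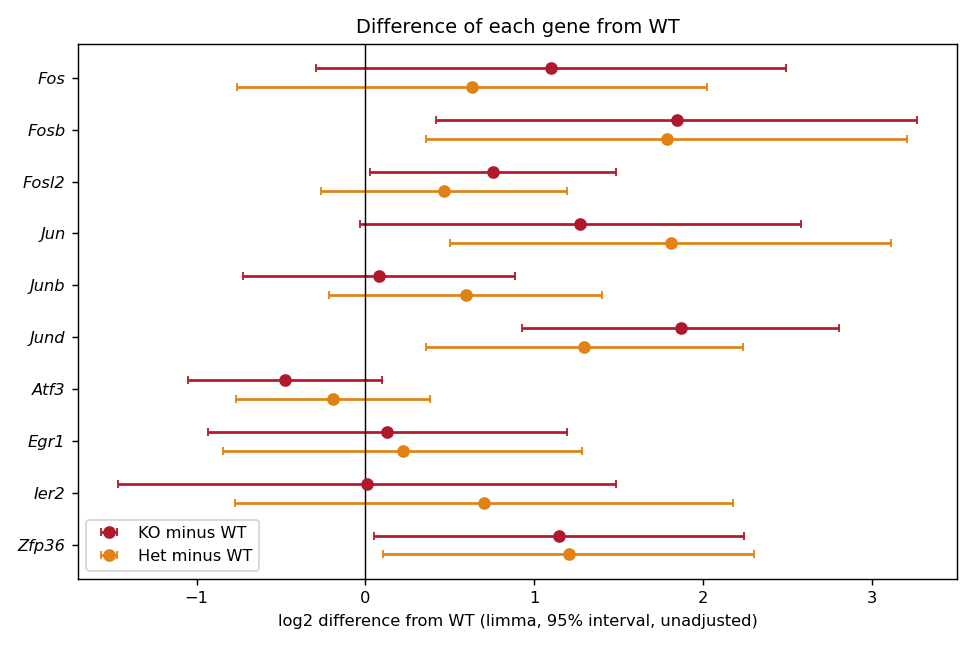
Log2 difference from WT (horizontal axis) of each gene, KO in red above Het in orange, with the unadjusted 95% interval of the limma fit over 9 arrays. The intervals of Fosb, Jund and Zfp36 lie above 0 in both comparisons, and none of the genes passed after adjustment over all genes.

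For the comparison within sexes, 1 KO and 2 WT arrays were female and 2 KO and 1 WT array were male. The female KO array was the one labelled KO replicate 3, whose Bcl11a reading lay inside the WT range. Each female KO minus WT value rests on it. KO minus WT was 1.44 in females and 1.78 in males for Fosb and 1.61 and 2.00 for Jund. For Jun it was 0.51 in females and 1.47 in males, and for Zfp36 0.83 and 0.66. The small KO minus WT differences were less even: Ier2 was lower in KO cells within each sex (-0.59 in females and -0.57 in males), although its overall difference was 0.01, and Junb was at 0.14 in females and -0.61 in males. Het minus WT within sexes was 1.06 in females and 1.88 in males for Fosb, 1.52 and 1.77 for Jun and 0.49 and 1.69 for Jund. No difference between the sexes in either effect was called with limma (adjusted p of 0.813 or more for KO minus WT and of 0.995 or more for Het minus WT).

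The arrays did move together. On KO replicate 2, 8 of the 10 genes were among their 3 highest readings, on Het replicate 1 it was 7 and on Het replicate 2 it was 6. On WT replicate 1 and on WT replicate 3, 8 of 10 were among their 3 lowest readings, and WT replicate 1 held the lowest value of 5 genes. Atf3 ran the other way on both ends, with its highest reading on WT replicate 1 and its lowest on KO replicate 2. The mean of the 10 genes was 6.44, 7.38 and 6.03 on the KO arrays, 6.93, 6.93 and 6.21 on the Het arrays, and 5.47, 6.29 and 5.77 on the WT arrays. KO and Het arrays thus ran on both sides of the highest WT array.

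**Figure D3:**
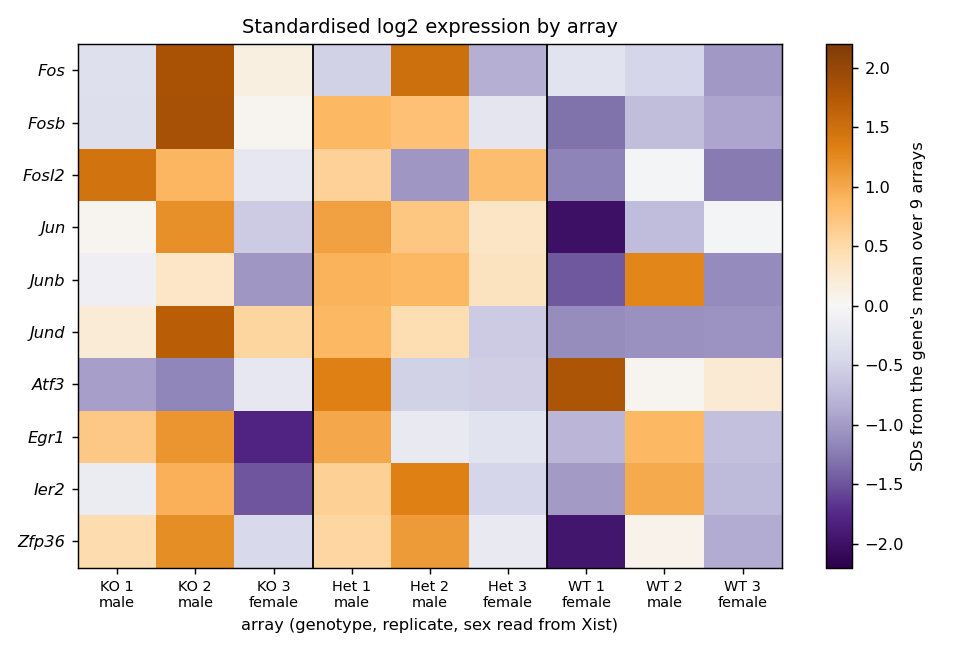
Each gene's log2 expression on each array (columns, KO, Het and WT from left to right) as SDs from that gene's mean over the 9 arrays. KO replicate 2, Het replicate 1 and Het replicate 2 are high for most genes, WT replicates 1 and 3 are low for most, and Atf3 runs opposite on KO replicate 2 and WT replicate 1.

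Over the 9 arrays, the median Pearson's r of the 45 gene pairs was 0.50, where the median over all pairs of genes tested was 0.002, and 36 of 45 pairs were above 0, where 50.2% of all pairs were. The 36 positive pairs were those without Atf3, with a median of 0.59 and a lowest value of 0.03. The 9 pairs with Atf3 ran from -0.65 to -0.19, and the lowest unadjusted exact permutation p of their r was 0.056. Without the 2 arrays farthest from the median of 1 gene of the pair, r with Atf3 was 0.34 for Jun, 0.36 for Junb, 0.15 for Jund and 0.02 for Fos. It stayed negative for Fosb (-0.71), Fosl2 (-0.41), Egr1 (-0.50), Ier2 (-0.30) and Zfp36 (-0.76). After each genotype's mean was taken off, the median of the 45 pairs was 0.51, so it was as high within genotypes as across them. Without WT replicate 1 the median was 0.38 and without KO replicate 2 it was 0.41.

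Exact two-sided permutation tests, adjusted over the 45 pairs, called 5 pairs by Pearson's r and 1 by Spearman's rho. That pair was Fosb with Jund (r = 0.935, exact permutation p = 0.00014, adjusted 0.00632, and rho = 0.95, exact permutation p = 0.00035, adjusted 0.0159), with an r of 0.841 without the arrays farthest from the median of Fosb, KO replicate 2 and Het replicate 1. With the second Jund probe set, the r with Fosb was 0.619. The Pearson call also took in Junb with Ier2 (r = 0.871, rho = 0.80), Jun with Zfp36 (0.862 and 0.833), Fosb with Zfp36 (0.841 and 0.833) and Fosb with Jun (0.839 and 0.867), each at an adjusted exact permutation p of 0.0436 for r and of 0.0692 to 0.0778 for rho. Without the arrays farthest from the first gene's median these r were 0.863, 0.571, 0.830 and 0.749. After each genotype's mean was taken off they were 0.86, 0.76, 0.69 and 0.72, and that of Fosb with Jund was 0.93. The permutations moved arrays freely across genotypes and sexes, so a genotype or sex difference shared by 2 genes can also give a small p. The pair of Fos with Fosb, at an r of 0.761, had an r of 0.202 without KO replicate 2 and Het replicate 2 and so rested on those arrays. Each sex had under 6 arrays, too few for a correlation within it.

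**Figure D4:**
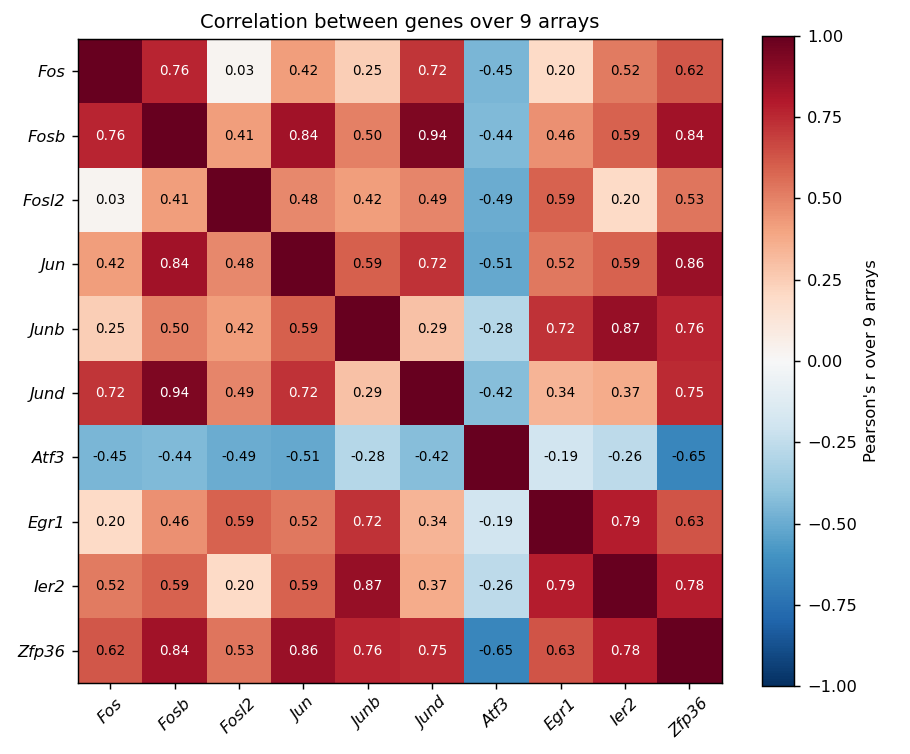
Pearson's r over 9 arrays between each pair of the 10 genes, on a colour scale from -1 (blue) to 1 (red). Atf3 is negative with the other 9 genes, and Fosb with Jund is the highest at 0.935.

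Sex moved with this pattern. The mean of the 10 genes was between 6.29 and 7.38 on the 5 male arrays and between 5.47 and 6.21 on the 4 female arrays, with no overlap. With genotype in the fit, male minus female was positive for 9 of 10 genes, with a median of 0.75 where all genes had 0.01 and 51.7% were positive. The widest was Ier2, which read 6.02 to 7.43 on male arrays (median 7.06) and 4.76, 5.72, 5.22 and 5.48 on female arrays, a difference of 1.64 (SE 0.278, adjusted p = 0.630 with limma). Zfp36 differed by 1.09 and Egr1 by 1.04, and these 3 genes had no overlap between the sexes, as 0.589% of all genes did as higher in males and 0.721% as lower. At an unadjusted p under 0.05, 4 were higher in males, with Junb (0.72), and 0 lower, against 2.16% and 2.64% of all genes. None was called after adjustment, where 0.024% of all genes were, and this comparison was added after the arrays had been seen. After genotype and sex were both taken off, the median r of the 45 pairs was 0.13, and that of Fosb with Jund was 0.909. With 2 of 3 WT arrays female, against 1 of 3 in KO and 1 of 3 in Het cells, sex and genotype were not balanced.

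The heat shock genes Hspa1a and Hspa1b, the inducible HSP70 genes that respond to heat and handling of cells, separated the same arrays. Hspa1b read 5.33, 9.44 and 6.47 in KO and 9.56, 10.10 and 4.63 in Het cells, against 3.12, 4.07 and 5.71 in WT cells. Hspa1a read 2.95, 7.74 and 4.56 in KO and 9.32, 9.12 and 4.73 in Het cells, against 4.56, 4.92 and 3.56 in WT cells. The 3 arrays above 7 for both genes, KO replicate 2 and Het replicates 1 and 2, were the 3 with the highest means of the 10 immediate early genes, and all came from male mice. The 2 heat shock genes are near-identical copies and their readings are not independent of each other. Hspa1b differed by 3.80 in Het (adjusted p = 0.967 with limma) and by 2.78 in KO cells (adjusted p = 0.638 with limma) from WT cells, but 2 of its 3 WT readings lay in the range of absent transcripts, so these sizes are against a level near background. Of the 12 tested genes of the heat shock list, 6 had an r above 0 with the mean of the 10 immediate early genes (median 0.03). Here and below, that mean is of their standardised values. The share was near that of all genes tested, 7992 of 16636, with a median of -0.02. Within the heat shock list r ran from -0.83 for Hspd1, a mitochondrial chaperonin, to 0.79 for Hspa1b.

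Without those 3 arrays together, a choice made after seeing the data, KO minus WT was 1.44 for Jund, 1.01 for Fosb, 0.80 for Zfp36 and 0.73 for Jun, on 2 KO and 3 WT arrays. The median over the 10 genes was then 0.60, with 2 genes at an unadjusted p under 0.05. The share of all genes at that p was not recounted for these arrays. For Het minus WT, with a single Het array that was assumed to vary like the others, Jun was at 1.40, Fosb at 0.88 and Jund at 0.49, with a median of 0.45. The median r of the 45 pairs over the 6 remaining arrays was 0.29. The part of cell handling in the differences was not tested.

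**Figure D5:**
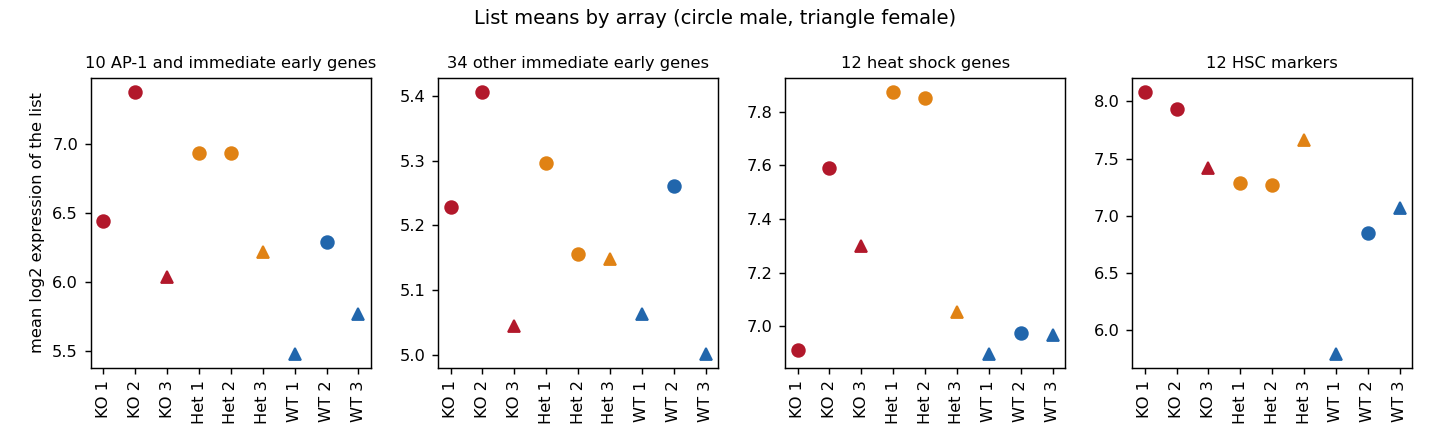
Mean log2 expression by array (KO, Het and WT from left to right; circles male, triangles female) of the 10 genes, of 34 other immediate early genes, of 12 heat shock genes and of 12 HSC markers, each panel on its own scale. KO replicate 2 and Het replicates 1 and 2 are the highest for the 10 genes and for the heat shock list, and WT replicate 1 is the lowest for the 10 genes, the heat shock list and the HSC markers. The heat shock means of these arrays rest on Hspa1a and Hspa1b. Averaged alone, the other heat shock genes are not highest on KO replicate 2 and Het replicates 1 and 2, nor lowest on WT replicate 1.

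Other immediate early genes took part in the pattern unevenly. Of 34 tested, 0 were called in KO or Het cells against WT with limma, where 0.0421% and 0% of all genes were. In each comparison 18 differences were positive, with medians of 0.07 and 0.05, against 45.4% and 48.3% of all genes positive. At an unadjusted p under 0.05, 5.4% of all genes were higher and 2.81% lower in KO cells, and 3.12% and 1.77% in Het cells. Of the 34, 1 was higher and 1 lower in each comparison. They were Ppp1r15a (0.78) and Ccn1 (-0.64) in KO cells and Dusp1 (0.99) and Ccn1 (-0.62) in Het cells. The widest differences of the 34 were those of Plk2, a stress-induced kinase, at 0.89 in KO and 1.01 in Het cells, and of Btg2, an antiproliferative p53 target, at 0.84 and 1.16. Over the arrays, 23 of 34 had an r above 0 with the mean of the 10 genes, where 7992 of all 16636 genes tested did. The median r was 0.29 for the 34 and -0.02 for all genes tested. Leaving out the 10 genes, predicted genes and RIKEN clones, the gene most like that mean was Dusp1, a phosphatase that switches off MAP kinases, with an r of 0.93 over 9 arrays. It read 6.39, 7.76 and 6.33 in KO and 7.56, 7.19 and 6.88 in Het cells, against 6.02, 6.46 and 6.17 in WT cells. Next came Ano10 (0.93), Tbc1d22a (0.91), Hmgxb4 (0.90) and Meg3 (0.90). Cebpd, also of the immediate early class, ran the other way at -0.67.

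Partners and regulators of AP-1 had smaller medians than the 10 genes in both comparisons. Of all genes, 45.4% were positive in KO and 48.3% in Het cells, and 0.0421% and 0% were called with limma. Among 10 further AP-1 and related leucine zipper genes, 0 were called, and 6 differences were positive in KO and 5 in Het cells, with medians of 0.15 and -0.01. Jdp2, a repressor that dimerises with Jun, was at 0.88 in KO cells and Atf7 at 0.96. Among 18 kinases and factors upstream of immediate early transcription, 0 were called and 13 were positive in KO cells (median 0.32), with Rps6ka3, a kinase of the RSK family, at 0.98, and 12 in Het cells (median 0.09), with Mrtfa, a cofactor of serum response factor, at 1.02. Over the arrays, 12 of the 18 had an r above 0 with the mean of the 10 genes, where 7992 of all 16636 genes tested did. Their median r was 0.10, from -0.35 for Map2k2 to 0.79 for Mapk8, which encodes the Jun kinase JNK1. Of 7 factors of AU-rich message decay, 5 were positive in KO (median 0.27) and 5 in Het cells (0.25) and 0 were called. With the mean of the 10 genes, 6 of these 7 had an r above 0, with a median of 0.335 and a highest value of 0.54 for Zfp36l2. The exception was Hnrnpd, which encodes the AU-rich element binding protein AUF1, with an r of -0.89.

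Stem cell and other cell type markers also differed between the arrays. Of all genes, 45.4% had a positive difference in KO and 48.3% in Het cells against WT cells. All 12 HSC markers had a positive difference in both KO (median 1.27) and Het cells (median 0.73) against WT cells, with 8 and 4 higher at an unadjusted p under 0.05, against 5.4% and 3.12% of all genes, and 0 called with limma. Of all 16636 genes tested, 7992 had an r above 0 with the mean of the 10 genes. All 12 HSC markers did, with a median of 0.58 and a highest value of 0.84 for Procr, the protein C receptor that marks HSCs. Their mean was 8.09, 7.94 and 7.42 on the KO arrays and 7.28, 7.26 and 7.66 on the Het arrays, against 5.78, 6.85 and 7.07 on the WT arrays. WT replicate 1 was the lowest for these markers, as for 5 of the 10 immediate early genes. Granulocyte and monocyte markers, of which 10 had a probe set, had a summed linear level of 490 to 817 in KO, 678 to 1705 in Het and 1422 to 1815 in WT cells, with 4, 3 and 4 of the 10 in the range of absent transcripts on every array of the group. Those sums were carried by S100a8, S100a9 and Lyz2 (KO minus WT of -3.86, -1.99 and -1.03), while Itgam was at 1.21, Cd14 at 0.18 and Mpo at -0.083. Macrophage markers summed to 97.8 to 189.9 in KO, 100.6 to 162.2 in Het and 115.8 to 153.3 in WT cells, and 0 of 6 had an r above 0 with the mean of the 10 genes. Of 5 B cell markers 3, and of 7 T and NK cell markers 4, 3 and 4, read as absent on every KO, Het and WT array. The rest of the T and NK list was not even: Klrb1c read 6.04, 7.07 and 6.14 in KO and 5.09, 4.24 and 4.02 in Het cells, against 3.98, 4.95 and 3.77 in WT cells, and Nkg7 differed by -1.75 in KO cells. Of 6 progenitor markers 2 were positive in KO and 4 in Het cells (medians -0.17 and 0.18); Cd52 differed by -1.96 in KO and -1.72 in Het cells, Flt3, which the sort selected against, by -1.06 and -0.79, and Cd34 by 1.62 and 0.35. With the mean of the 10 genes, 3 of the 6 progenitor markers had an r above 0 (median -0.09). Cd52 and Flt3 were at -0.66 and -0.53, and Cd34 was the highest at 0.35. Of 5 tested stroma and endothelium markers, 2 were positive in KO and 3 in Het cells (medians -0.06 and 0.16). Among them Pecam1, an endothelial marker that HSCs also express, differed by 1.97 in KO and 0.93 in Het cells. None of these genes was called with limma. The part of cell composition in the immediate early differences was not tested, and fewer cells with a message and less message per cell cannot be told apart in sorted bulk RNA.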

How the data were processed

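The 9 arrays were Affymetrix Mouse Gene 2.0 ST, hybridised with amplified, biotin-labelled cDNA from sorted HSCs. The deposited values are log2 summaries per probe set that the authors made with RMA, per the submitters' processing notes, with version, settings and genome build not stated there. RMA subtracts background, makes the arrays' distributions more alike and pools each probe set's probes, which compresses differences of dim transcripts. The deposited arrays still differed in interquartile range, from 2.22 to 2.83. Depth does not apply to arrays; their number limits the precision.

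Of 41345 probe sets, 23521 had 1 gene symbol, 1814 had several and 16010 were not listed with a gene in the platform annotation, and 23328 symbols were updated through gene identifiers. Where a gene had several, the probe set brightest on average was kept. Tests left out genes whose mean fell below the 25th percentile (log2 3.31). One model per gene (limma 3.58.1 in R 4.3.3) had a mean for each genotype over 9 arrays, with 6 residual and 4.26 prior degrees of freedom; calls were made at a Benjamini-Hochberg adjusted p under 0.05. Groups came from the labels, which call the replicates biological, and KO and Het were each compared with WT, with each other, and together with WT. The fit was tested on simulated data. Gene pairs were tested by exact permutation of the 9 arrays. The genes named were the 10 genes and Bcl11a, the widest differences of each other gene list and the 5 genes most like the mean of the 10; Ppp1r15a, Ccn1, Cebpd, Hspd1, Mapk8, Hnrnpd and Procr were named by their rank in a list after their values were seen. The 10 genes and the lists were chosen with earlier results of these data known. Alternatives changed the filter, the normalization, the probe set rule, the covariates, the weights and the arrays used.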

Additional observations from a re-analysis of the deposited data

How the results depend on the processing

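None of the 10 genes was called with limma in any comparison under any alternative, and the adjusted p of Jund in KO against WT cells ran from 0.164 to 0.927. With single arrays left out, the number of the 10 genes at an unadjusted p under 0.05 ran from 1 to 5 for KO minus WT, from 1 to 5 for Het minus WT, from 0 to 0 for KO minus Het and from 2 to 6 for the Cre-carrying cells minus WT. Without KO replicate 2 and Het replicates 1 and 2 together the KO minus WT count was 2. For none of the alternatives, here or elsewhere in this report, was the share of all genes at that p recounted. The KO minus WT count was also 2 after renewed quantile normalization and with a term for the arrays' interquartile range, and the Het minus WT count was 2 without WT replicate 1 and KO replicate 3. The median r of the 45 pairs ran from 0.38 to 0.61 with single arrays left out, and was 0.42 without WT replicate 1 and KO replicate 3, 0.29 without the 3 arrays and 0.13 after genotype and sex were taken off. The second Jund probe set turned the sign of Jund to -0.11 for KO minus WT, -0.18 for KO minus Het and -0.018 for Cre-carrying cells minus WT.

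The small differences changed sign, and the cause was not tested. KO minus WT for Junb, Egr1 and Ier2 was -0.0948, -0.0648 and -0.16 after renewed quantile normalization, -0.16, -0.22 and -0.54 with sex as a term and -0.0346, -0.20 and -0.15 with a term for the interquartile range, and Junb was at -0.0478 with array weights. With single arrays left out these 3 ran from -0.18 to 0.52, from -0.22 to 0.69 and from -0.55 to 0.60. Without the 3 arrays they were -0.07, -0.22 and -0.55. Het minus WT for Egr1 was -0.13 with sex as a term. Over the settings that left out arrays, Het minus WT ran from -0.21 to 1.05 for Fos, from -0.073 to 0.55 for Egr1 and from -0.22 to 1.29 for Ier2. KO minus Het likewise ran from -0.14 to 1.16 for Fos, from -0.77 to 0.60 for Fosb, from -0.10 to 0.52 for Fosl2, from -0.44 to 0.47 for Egr1 and from -0.40 to 0.31 for Zfp36. Zfp36 was at 0.013 with array medians set equal and at 0.17 with array weights, where Egr1 was at 0.14. For Cre-carrying cells minus WT, Egr1 was -0.17 and Ier2 -0.19 with sex as a term, and Egr1 was -0.0635 with a term for the interquartile range. Leaving out arrays gave -0.15 to 0.50 for Egr1 and -0.38 to 0.94 for Ier2.

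Over all genes, the 7 calls of KO minus WT were 24 with array weights, 4 among genes above the median level, 3 after quantile normalization, 3 with sex as a term, 1 with the compared groups alone, 2 without WT replicate 1 and KO replicate 3, 0 with the interquartile range term and 0 to 15 with single arrays left out. The groups share replicate numbers, but same-numbered arrays did not deviate together (r of -0.19 to 0.23 over 9 pairs). With the replicate block, 4 of the 10 genes had an unadjusted p under 0.05 for KO minus WT, 4 for Het minus WT, 0 for KO minus Het and 5 for Cre-carrying cells minus WT, none was called, and 0 of all genes were called for KO minus WT. The number of arrays, and the nearness of Fosb and Atf3 to the range of absent transcripts, limit the precision.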
